A study of Homo sapiens with 11 samples.

Results

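Transcript levels of 10 genes of fibroblast growth factor (FGF) signalling were followed in 2 human cancer cell lines exposed to 4 drugs, in 11 RNA-seq libraries. The genes were FGFR1, FGFR2, FGFR3, FGFR4 and FGFRL1, which encode FGF receptors, and SPRY1, SPRY2, SPRY4, SPRED1 and SPRED2, which encode inhibitors of the pathway. All 10 were found by symbol among the 23228 genes counted. They were selected on the etoposide ratios, because FGFR3 was among the genes with the highest of these, so every etoposide value is a description and carries no test. U2OS osteosarcoma cells and MDA-MB231 basal breast cancer cells had received doxorubicin (1 µM), etoposide (20 µM), methyl methanesulfonate (MMS, 40 µg/mL) or paclitaxel (0.2 µM) for 8 h, or the vehicle DMSO. Doxorubicin and etoposide poison topoisomerase II, MMS methylates DNA, and paclitaxel stabilises microtubules. There was 1 library per line and drug, 1 DMSO library of U2OS and 2 of MDA-MB231. MDA-MB231 DMSO replicate 1 has the title form of the doxorubicin, etoposide and paclitaxel libraries and was their control. MDA-MB231 DMSO replicate 2 has the title form of the MMS library, was its control, and carries a description of no treatment beside a DMSO treatment label. Each line is a single cell population, and no label says that any libraries came from separate cultures.

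FGF ligands bind the receptor tyrosine kinases FGFR1 to FGFR4 together with heparan sulphate, and the activated receptors signal through the docking protein FRS2 and the adaptor GRB2 to RAS and the ERK kinases. FGFRL1 binds FGF ligands but lacks the tyrosine kinase domain. Sprouty proteins are made in answer to ERK activity and damp the signal upstream of it, and SPRED proteins recruit the RAS-inactivating protein NF1 to the membrane. FGFR1 is the main receptor of many mesenchymal cells, and FGFR3 restrains growth-plate cartilage and is a known oncogene of bladder cancer.

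FGFR3 was behind the choice of the list, and FGFR4 differed between drugs and between lines. FGFRL1 was the gene whose drug ratios followed those of FGFR3 most closely among the 10. SPRY2 was 1 of the 3 Sprouty genes whose doxorubicin ratios had opposite signs in the lines. The proximal promoters of these 4 genes are shown. Each is the RefSeq window of 250 bases before and 50 after a transcript start (build GRCh38.p14), 5′ to 3′ on the gene's strand, with the SP1 box GGGCGG and its complement CCGCCC in capitals. The windows are chr4:1793043-1793342 (plus strand) for FGFR3, chr5:177086665-177086964 (plus) for the first of 2 windows of FGFR4, chr4:1012214-1012513 (plus) for FGFRL1 and chr13:80341077-80341376 (minus) for the first of 3 windows of SPRY2.
FGFR3: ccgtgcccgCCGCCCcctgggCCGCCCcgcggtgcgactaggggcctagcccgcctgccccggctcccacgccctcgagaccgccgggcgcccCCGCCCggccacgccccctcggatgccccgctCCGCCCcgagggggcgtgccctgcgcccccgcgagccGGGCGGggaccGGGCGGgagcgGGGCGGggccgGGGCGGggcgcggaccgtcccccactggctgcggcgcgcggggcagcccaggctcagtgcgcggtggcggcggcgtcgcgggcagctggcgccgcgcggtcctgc
FGFR4: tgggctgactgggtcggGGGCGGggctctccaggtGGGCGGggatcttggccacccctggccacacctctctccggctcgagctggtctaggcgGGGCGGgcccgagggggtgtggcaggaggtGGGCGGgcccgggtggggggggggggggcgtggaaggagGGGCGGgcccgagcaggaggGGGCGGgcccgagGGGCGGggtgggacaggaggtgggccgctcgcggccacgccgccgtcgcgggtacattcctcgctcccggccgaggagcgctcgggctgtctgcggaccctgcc
FGFRL1: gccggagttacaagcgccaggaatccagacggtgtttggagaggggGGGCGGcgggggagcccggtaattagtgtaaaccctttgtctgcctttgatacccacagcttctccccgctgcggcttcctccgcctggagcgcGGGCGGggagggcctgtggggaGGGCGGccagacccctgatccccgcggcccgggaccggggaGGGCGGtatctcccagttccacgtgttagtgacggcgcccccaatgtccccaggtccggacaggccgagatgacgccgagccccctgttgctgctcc
SPRY2: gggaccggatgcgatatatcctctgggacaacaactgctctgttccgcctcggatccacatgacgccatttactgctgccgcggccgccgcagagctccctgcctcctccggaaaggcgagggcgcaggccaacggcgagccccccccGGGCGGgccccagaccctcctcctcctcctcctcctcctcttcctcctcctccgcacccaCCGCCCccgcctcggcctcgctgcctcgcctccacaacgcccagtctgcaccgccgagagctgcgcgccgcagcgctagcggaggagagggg
The FGFR3 window was the richest in G and C, at 86.3%, more than in 99.9% of the 35116 windows of the table, whose median was 58.7%. It held 8 SP1 boxes, the FGFR4 window 7, the FGFRL1 window 4 and the SPRY2 window 2, on both strands together, and 44.95% of all windows held at least 1. The EGR motif GCGNGGGCG, present in 9.43% of all windows, occurred 2 times in the FGFR3 window, 2 times in the SPRY2 window and 1 time in the FGFRL1 window, where it can overlap the SP1 box. The ETS motif CCGGAA, present in 17.2% of windows, occurred in the SPRY2 window and in none of the other 3. None of the 4 windows held the AP-1 motif TGANTCA (7.71% of windows), the CRE motif TGACGTCA (1.85%) or TATAAA (11.5%). These are letter matches and say nothing of whether a factor binds.

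Library sizes ran from 16774156 to 31588683 reads assigned to genes. Levels are given as CPM, gene reads scaled to a common library size, with factors from the trimmed mean of M values (TMM), and ratios within a line are log2 ratios with 0.5 CPM added to each side, which pulls ratios of low genes toward 0. Scaling by total counts instead moved the median ratio of all genes to -0.33 after doxorubicin in U2OS cells, -0.22 after doxorubicin in MDA-MB231 cells and 0.16 after etoposide in U2OS cells, so small ratios in those libraries depend on the scaling. The 2 MDA-MB231 DMSO libraries give the only repeat of a condition. Among the 10826 genes with at least 5 CPM in the larger library their absolute log2 ratio had a median of 0.18 and a 95th percentile of 0.67, and the 7 pathway genes that reached 5 CPM differed by -0.44 (SPRY1) to 0.20 (SPRED2). The labelled tissues were only partly visible in markers. KRT8 and KRT18 were high in both lines, KRT19 reached 65.3 to 181.99 CPM in MDA-MB231 cells against at most 0.344 CPM in U2OS cells, and ESR1 and PGR stayed at or below 0.611 CPM in all libraries. Of the osteoblast markers, COL1A1 (48.0 to 65.0 CPM) and ALPL (1.81 to 12.9 CPM) stood above their MDA-MB231 levels in U2OS cells, but SP7, BGLAP and COL1A2 were near 0 in U2OS cells and CDH11 was higher in MDA-MB231 cells. The 8 blood and endothelial markers summed to 1.16 to 2.20 CPM in U2OS cells and 1.89 to 14.1 CPM in MDA-MB231 cells, and HBB had no reads.

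FGFR1 dominated the receptor transcripts of MDA-MB231 cells, whereas U2OS cells carried FGFR1 and FGFR4 together. Per kilobase of exon, FGFR1 made up 54.5% of the FGFR1 to FGFR4 sum in U2OS cells with DMSO, FGFR4 38.7%, FGFR2 4.67% and FGFR3 2.10%. In the MDA-MB231 DMSO libraries FGFR1 made up 97.5% and 96.1%, FGFR4 1.60% and 3.02%, and FGFR3 0.910% and 0.834%. FGFR2 had 1 and 0 reads there. FGFR3 held 16.0% of the sum in U2OS cells with etoposide, where FGFR1 held 62.3% and FGFR4 19.3%, and 26.9% in MDA-MB231 cells with etoposide, where FGFR1 held 70.6% and FGFR3 was thus the second receptor. The summed receptor level was 60.7, 51.1, 23.7 and 29.9 CPM per kilobase after doxorubicin, etoposide, MMS and paclitaxel in U2OS cells, against 28.5 CPM per kilobase with DMSO. In MDA-MB231 cells it was 33.7, 54.1 and 26.1 CPM per kilobase after doxorubicin, etoposide and paclitaxel against 26.2 CPM per kilobase with DMSO, and 18.5 CPM per kilobase after MMS against 25.2 CPM per kilobase. The sum with doxorubicin in U2OS cells lay mainly in FGFR1 and FGFR4, whose levels per kilobase were 31.7 and 23.5 CPM against 15.5 and 11.02 CPM with DMSO. Levels of a bulk library cannot separate fewer expressing cells from less RNA per cell.

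**Figure D1:**
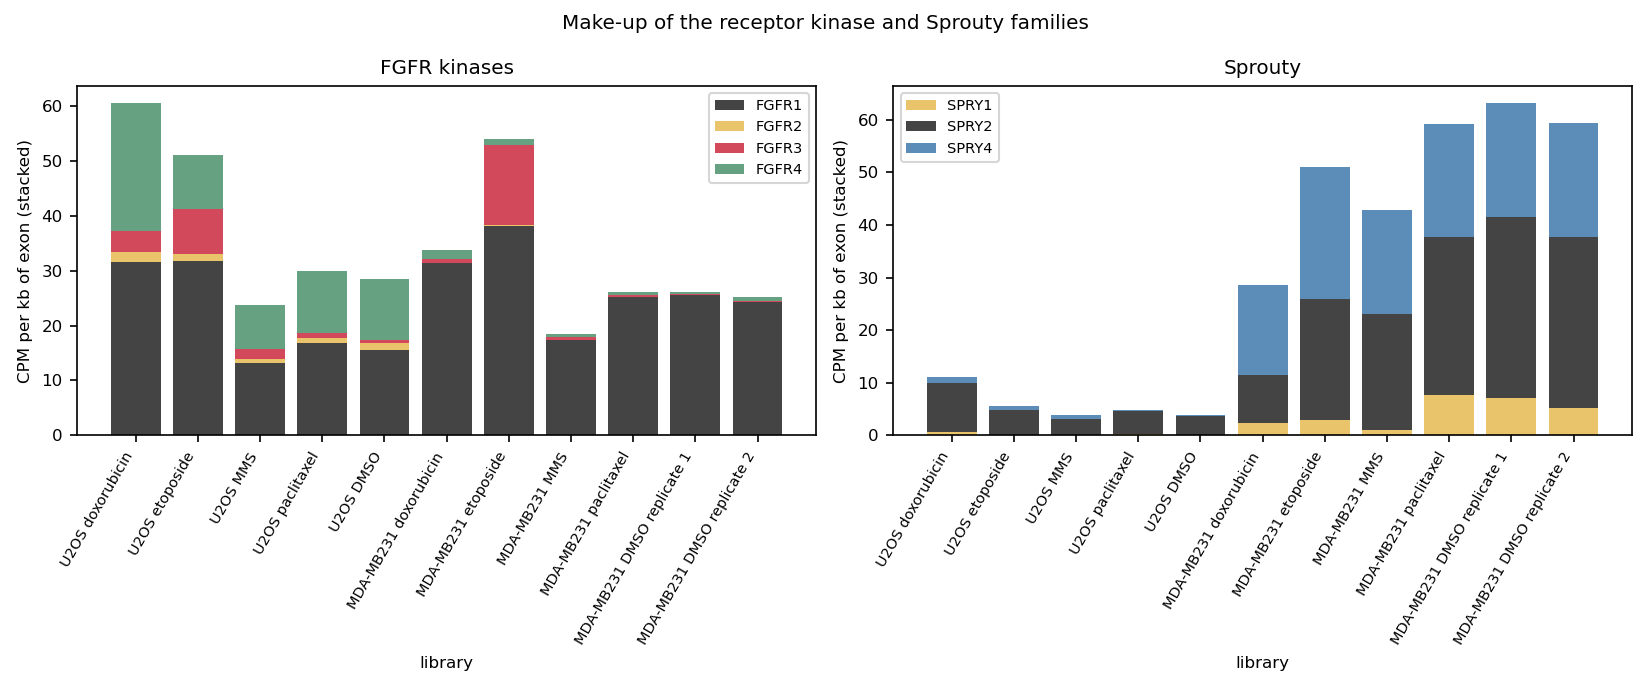
Stacked levels in CPM per kilobase of exon (y axis) for each library (x axis), with FGFR1 to FGFR4 on the left and SPRY1, SPRY2 and SPRY4 on the right. Each bar is 1 library. FGFR4 is a large share in U2OS libraries only, FGFR3 shows in the etoposide bars of both lines, and the Sprouty sum is 28.7 to 63.3 CPM per kilobase in MDA-MB231 cells but at most 11.1 CPM per kilobase in U2OS cells.

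FGFR3 was low without drug and high after etoposide in both lines, which is the value that put these genes on the list. In U2OS cells it had 1345 reads (36.4 CPM) after etoposide, against 52 reads (2.66 CPM) with DMSO. In MDA-MB231 cells it had 2015 reads (64.8 CPM) after etoposide, against 27 reads (1.06 CPM) with DMSO replicate 1. The etoposide library was the highest of its line, where the next library, doxorubicin, had 16.5 CPM in U2OS cells and 3.23 CPM in MDA-MB231 cells. The log2 ratios over DMSO were 3.54 in U2OS cells and 5.39 in MDA-MB231 cells, and the mean log2 change over the lines ranked 23rd of 15888 genes at 5.04 ± 0.68 (SE, n = 2 libraries). FGFR1 had 207 CPM after etoposide against 101.1 CPM with DMSO in U2OS cells, and 249 CPM against 166 CPM in MDA-MB231 cells. FGFRL1 had 100.8 CPM after etoposide against 65.0 CPM with DMSO in U2OS cells, and 149 CPM against 67.5 CPM in MDA-MB231 cells. Their mean log2 changes were 0.79 ± 0.18 for FGFR1 and 0.89 ± 0.19 for FGFRL1. Of the 10 genes, 3 fell under the edgeR adjusted p threshold of 0.05 in this contrast, all of them higher. Of all genes tested, 7.97% were called higher, 9.23% lower and 17.2% in either direction. Since the contrast chose the list, no gene's call is a test here, and nothing is read from the count of 3. It is 0 without MDA-MB231 DMSO replicate 1, 1 without the MDA-MB231 etoposide library and 1 without U2OS DMSO.

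The etoposide ratios of FGFR4 and FGFR2 differed between the lines, on few reads in MDA-MB231 cells. FGFR4 stood at 31.4 CPM after etoposide against 35.2 CPM with DMSO in U2OS cells, and at 3.54 CPM against 1.34 CPM in MDA-MB231 cells, on 110 and 34 reads. MDA-MB231 DMSO replicate 2 had 39 reads of FGFR4 (2.44 CPM), a log2 ratio of 0.68 over replicate 1, so part of that difference depends on the control used. FGFR2 stood at 8.60 CPM against 8.91 CPM in U2OS cells, with a log2 ratio of -0.05. In MDA-MB231 cells FGFR2 had 51 reads after etoposide and 1 read with DMSO, and the 95% counting interval of their log2 ratio, without the added CPM, was 2.84 to 10.71. FGFR2 was thus barely present in MDA-MB231 cells in any library other than the etoposide one, where its level was still only 1.64 CPM.

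Doxorubicin, the other topoisomerase II poison of the series, raised 4 of the 5 receptor genes. A drug effect was tested as the mean change over the lines in 1 edgeR fit of all 11 libraries, with each line and title form as a block and p-values adjusted over all 15888 genes by the Benjamini-Hochberg method. FGFR3 had 337 reads (16.5 CPM) after doxorubicin against 52 reads (2.66 CPM) with DMSO in U2OS cells, and 69 reads (3.23 CPM) against 27 reads (1.06 CPM) in MDA-MB231 cells. The level was higher with drug in both lines and far higher in U2OS cells, and the mean log2 change was 2.17 ± 0.63 (edgeR adjusted p = 0.0216). The DMSO libraries of this test also entered the etoposide ratios that chose FGFR3, so its value here is not independent of that choice. FGFR4 had 75.0 CPM against 35.2 CPM in U2OS cells, and 4.96 CPM against 1.34 CPM in MDA-MB231 cells. It rose by 1.38 ± 0.34 on the log2 scale (edgeR adjusted p = 0.0116), from very different levels in the lines. Its level in MDA-MB231 DMSO replicate 2, which was not the control here, was 2.44 CPM. FGFR1 had 206 CPM against 101.1 CPM in U2OS cells, and 205 CPM against 166 CPM in MDA-MB231 cells, a rise of 0.66 ± 0.18 (edgeR adjusted p = 0.0166). FGFRL1 had 112 CPM against 65.0 CPM in U2OS cells, and 93.9 CPM against 67.5 CPM in MDA-MB231 cells, a rise of 0.63 ± 0.19 (edgeR adjusted p = 0.0257). FGFR2 did not pass the test, with 12.3 CPM against 8.91 CPM in U2OS cells and 6 reads against 1 in MDA-MB231 cells.

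These 4 calls of 10, all of them higher, stand beside 21.9% of all genes called higher, 20.6% called lower and 42.5% called in either direction after doxorubicin, so a call of some kind was common. The 5 receptors had a median log2 change of 0.70 against 0.07 over all genes tested. That median is the value of FGFR2 (0.70 ± 0.95), which was not called. The count and the median both include FGFR3, whose value is not independent of the choice of the list. Without U2OS DMSO, or without MDA-MB231 DMSO replicate 1, the count of called members was 1, without the block it was 0, and without the U2OS doxorubicin library the FGFR3 change was 1.12 (edgeR adjusted p = 0.299). With total-count scaling FGFR1 and FGFRL1 were no longer called (edgeR adjusted p = 0.0657 and 0.0846).

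**Figure D2:**
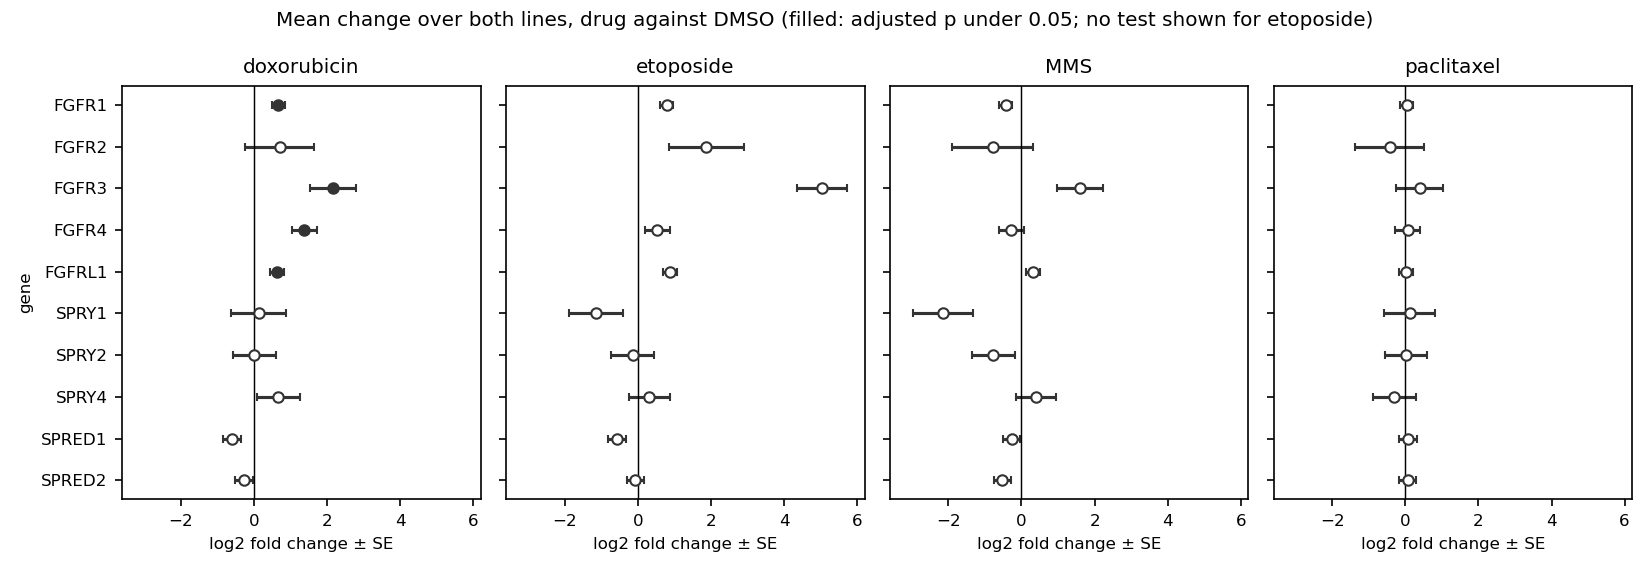
Mean log2 fold change over both lines with its SE (x axis) for the 10 genes (y axis), with 1 panel per drug. Filled points passed an edgeR adjusted p under 0.05; the etoposide panel has unfilled points because that contrast chose the genes. The filled points are FGFR1, FGFR3, FGFR4 and FGFRL1 after doxorubicin.

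No receptor gene passed the test after MMS or paclitaxel. FGFR3 had 223 reads (8.69 CPM) after MMS against 52 reads (2.66 CPM) with DMSO in U2OS cells, and 54 reads (2.17 CPM) after MMS against 15 reads (0.937 CPM) with DMSO replicate 2 in MDA-MB231 cells. Both lines had more FGFR3 with MMS, and the mean log2 change of 1.61 ± 0.62 did not pass the threshold (edgeR adjusted p = 0.128). The U2OS DMSO library of this test also entered the etoposide ratios that chose FGFR3. The FGFR3 values after MMS, also those with a library left out below, are thus not independent of that choice. FGFR1 had 86.3 CPM after MMS against 101.1 CPM in U2OS cells and 114 CPM against 158 CPM in MDA-MB231 cells, a log2 change of -0.43 ± 0.18 (edgeR adjusted p = 0.146). FGFR2 in U2OS cells had 3.90 CPM after MMS against 8.91 CPM with DMSO, and no reads in either MDA-MB231 library. Of the 10 genes, edgeR called 0 after MMS, with 3 at an unadjusted p under 0.05 and 0 by DESeq2, where 10.4% of all genes tested were called, 5.23% higher and 5.16% lower. That count is 1 without any 1 of the 4 doxorubicin and etoposide libraries: without either etoposide library FGFR3 was called (edgeR adjusted p = 0.0370 and 0.0415), and without either doxorubicin library SPRY1 was. After paclitaxel edgeR called 0 of the 10 genes and 0 of all genes (0%), with 0 and 110 at an unadjusted p under 0.05 and 0 by DESeq2. Paclitaxel ratios of the receptors at or above 5 CPM lay between -0.46 (FGFR2, U2OS cells) and 0.12 (FGFR1, U2OS cells).

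The difference between drugs was tested in the same fit, for the 3 pairs that leave etoposide out. FGFR1 was lower after MMS than after doxorubicin by a log2 value of -1.09 ± 0.21 (edgeR adjusted p = 0.00345), and FGFR4 by -1.65 ± 0.40 (edgeR adjusted p = 0.0106), while the FGFR3 difference of -0.56 ± 0.68 did not pass (edgeR adjusted p = 0.531). These were 2 of 10 genes, where 42.6% of all genes differed, 20.4% higher and 22.3% lower after MMS. FGFR1 was lower after paclitaxel than after doxorubicin by -0.62 ± 0.19 (edgeR adjusted p = 0.0265), FGFR4 by -1.31 ± 0.36 (edgeR adjusted p = 0.0175) and FGFRL1 by -0.60 ± 0.20 (edgeR adjusted p = 0.0379), while FGFR3 at -1.77 ± 0.64 missed the threshold (edgeR adjusted p = 0.0532). These were 3 of 10 genes, where 40.2% of all genes differed, 20.1% higher and 20.2% lower after paclitaxel. Between MMS and paclitaxel edgeR called 0 of 10, with 1 at an unadjusted p under 0.05 and 0 by DESeq2, where 7.26% of all genes differed, 3.41% higher and 3.85% lower after MMS. The count for MMS against doxorubicin is 0 without the U2OS MMS library and 4 without either doxorubicin library. The count for paclitaxel against doxorubicin is 0 without the MDA-MB231 paclitaxel library, 1 without the U2OS paclitaxel library, 1 without MDA-MB231 DMSO replicate 2 and 5 without the MDA-MB231 doxorubicin library. That for MMS against paclitaxel is 1 without either doxorubicin library. With total-count scaling the paclitaxel against doxorubicin calls of FGFR1 and FGFRL1 were lost (edgeR adjusted p = 0.106 and 0.123), and without the block no member was called in either doxorubicin comparison. The doses are not matched between drugs beyond the exposure of 8 h.

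**Figure D3:**
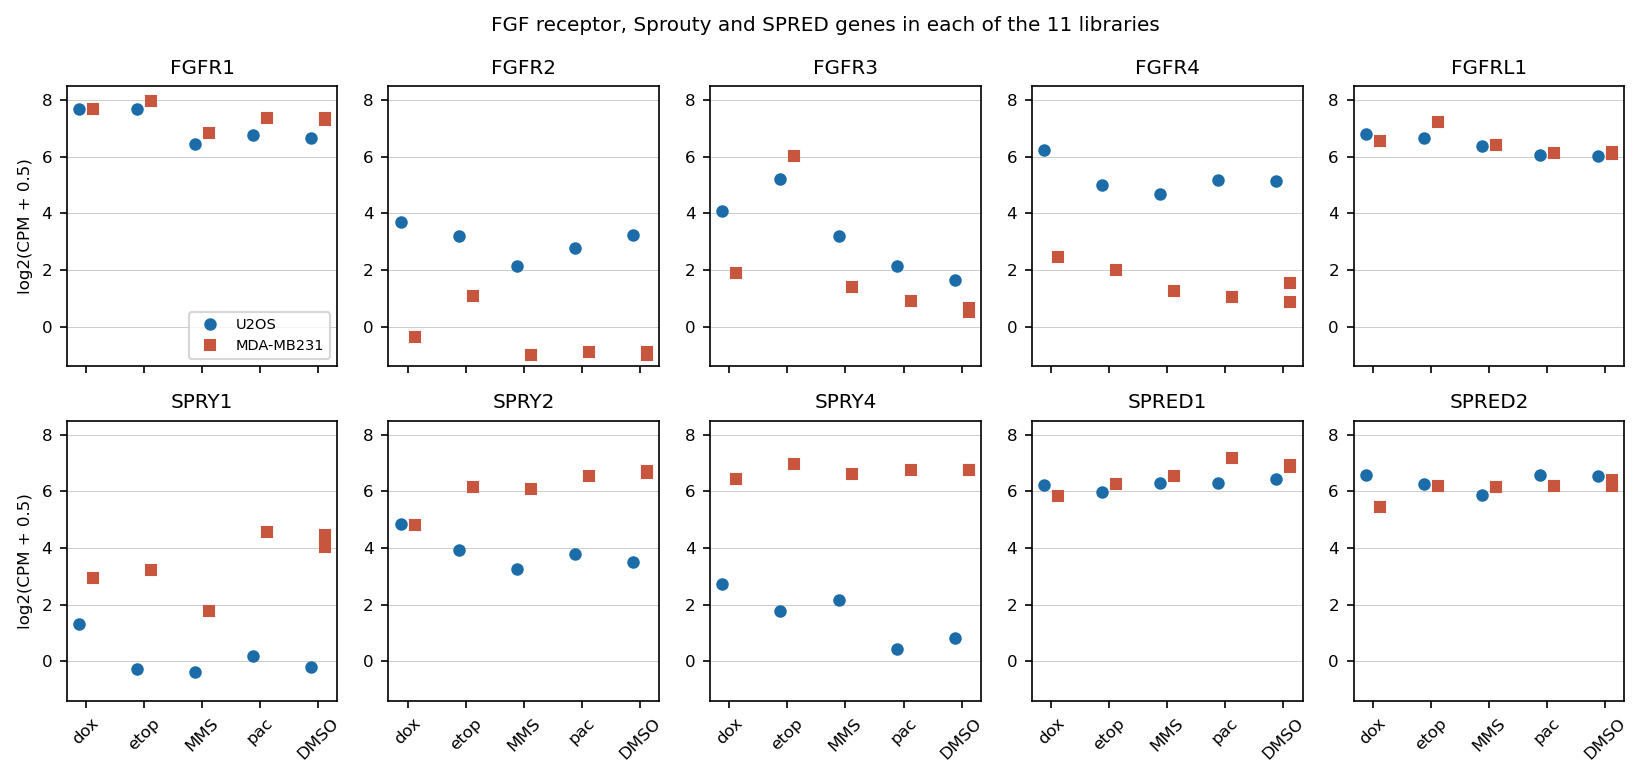
Level of each of the 10 genes as log2(CPM + 0.5) (y axis) by treatment (x axis; dox, doxorubicin; etop, etoposide; pac, paclitaxel), with 1 point per library, circles for U2OS cells and squares for MDA-MB231 cells. FGFR4 lies higher in U2OS cells and SPRY1 and SPRY4 higher in MDA-MB231 cells at every treatment, and the 2 lines meet at SPRY2 after doxorubicin.

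Sprouty transcripts were abundant in MDA-MB231 cells and scarce in U2OS cells. SPRY4, an inhibitor of RAS activation, ranged from 0.860 to 6.15 CPM in U2OS cells (5 libraries, median 2.92 CPM) and from 85.9 to 125 CPM in MDA-MB231 cells (6 libraries, median 107 CPM). SPRY2, the most studied Sprouty gene, ranged from 8.97 to 28.0 CPM in U2OS cells (median 13.3 CPM) and from 27.4 to 104 CPM in MDA-MB231 cells (median 80.8 CPM). SPRY1, a regulator of kidney branching in the mouse, ranged from 0.273 to 2.002 CPM in U2OS cells (median 0.358 CPM) and from 2.93 to 22.9 CPM in MDA-MB231 cells (median 12.3 CPM). The ranges of SPRY4 and SPRY1 did not overlap between lines, and those of SPRY2 overlapped only through the doxorubicin libraries. Those of FGFR2 and FGFR4 did not overlap either. The share of all genes without overlap was not counted, so nothing is read from this trait, and 61% of all genes tested were called between lines. With the drugs held constant, the log2 difference of U2OS over MDA-MB231 cells was -5.30 ± 0.44 for SPRY4 (edgeR adjusted p = 1.20e-05), -4.09 ± 0.58 for SPRY1 (edgeR adjusted p = 0.000279) and -2.43 ± 0.44 for SPRY2 (edgeR adjusted p = 0.00121). In this contrast the differently treated libraries of a line stand in for its replicates. Its p-values, here and for the receptors below, measure the scatter left by the line and drug terms. They do not measure variation between cultures of a line.

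Of the receptors, FGFR2, FGFR3 and FGFR4 were higher in U2OS cells and FGFR1 lower. FGFR4 ranged from 25.5 to 75.0 CPM in U2OS cells and from 1.34 to 4.96 CPM in MDA-MB231 cells, a log2 difference of 3.86 ± 0.25 (edgeR adjusted p = 3.05e-06). FGFR2 ranged from 3.90 to 12.3 CPM in U2OS cells and from 0 to 1.64 CPM in MDA-MB231 cells, where 4 of the 6 libraries held 0 or 1 read, so that its fitted log2 difference of 7.40 ± 1.01 (edgeR adjusted p = 0.000360) depends on the count added for the fit. FGFR3 was higher in U2OS cells by 1.40 ± 0.44 (edgeR adjusted p = 0.0197), although its ranges overlapped, at 2.66 to 36.4 CPM in U2OS cells and 0.937 to 64.8 CPM in MDA-MB231 cells. The fit holds the DMSO and etoposide libraries that chose FGFR3, so this value is not independent of that choice. In the etoposide libraries FGFR3 was higher in MDA-MB231 cells (64.8 CPM) than in U2OS cells (36.4 CPM). FGFR1 was lower in U2OS cells by -0.41 ± 0.12 (edgeR adjusted p = 0.0157), with 86.3 to 207 CPM in U2OS cells and 114 to 249 CPM in MDA-MB231 cells. In all, 7 of 10 genes differed between lines, 3 higher and 4 lower in U2OS cells, beside 33.1% of all genes called higher, 27.9% called lower and 61% called in either direction. FGFRL1 (-0.10 ± 0.13), SPRED1 (-0.32 ± 0.17) and SPRED2 (0.23 ± 0.16) did not pass. The calls of FGFR1 and FGFR3 were lost without some single libraries, with an edgeR adjusted p of up to 0.0977 for FGFR1 (without U2OS DMSO) and 0.152 for FGFR3 (without MDA-MB231 MMS).

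The Sprouty genes had higher levels with doxorubicin than with DMSO in U2OS cells and lower levels in MDA-MB231 cells. SPRY2 had 28.0 CPM after doxorubicin against 10.9 CPM with DMSO in U2OS cells, and 27.4 CPM against 104 CPM in MDA-MB231 cells. SPRY1 had 41 reads against 7 in U2OS cells, and 154 reads (7.20 CPM) against 548 reads (21.6 CPM) in MDA-MB231 cells. SPRY4 had 6.15 CPM against 1.28 CPM in U2OS cells, and 85.9 CPM against 108 CPM in MDA-MB231 cells. In U2OS cells the log2 ratios were thus 1.33 for SPRY2, 1.54 for SPRY1 and 1.90 for SPRY4, and in MDA-MB231 cells -1.91, -1.52 and -0.33 for the same genes. SPRY1 stayed under 5 CPM in U2OS cells, and the SPRY4 ratio in MDA-MB231 cells lay within the 0.67 of the DMSO pair. Only SPRY2 was thus measurable and beyond that value in both lines. A term for U2OS cells within doxorubicin, added after these values were seen, put the log2 difference of U2OS minus MDA-MB231 responses at 2.79 ± 0.38 for SPRY2 (edgeR adjusted p = 0.0975), 3.19 ± 0.65 for SPRY1 (edgeR adjusted p = 0.139) and 2.07 ± 0.70 for SPRY4 (edgeR adjusted p = 0.253). None of these passed the threshold. It was called for 0 of the 10 genes by edgeR, with 5 at an unadjusted p under 0.05 and 2 by DESeq2, and for 0 of 16530 genes in all (0%), with 2467 at an unadjusted p under 0.05 and 555 by DESeq2. The same term within MMS and within paclitaxel called 0 of 10 genes by edgeR, with 0 at an unadjusted p under 0.05 and 0 by DESeq2 in each. It was called for 0 of 16530 genes in all (0%) within either drug. Of these, 830 within MMS and 136 within paclitaxel had an unadjusted p under 0.05, and DESeq2 called 93 and 0. The Sprouty sum per kilobase drew closer between lines, at 11.1 CPM in U2OS and 28.7 CPM in MDA-MB231 cells after doxorubicin, compared with 3.95 CPM in U2OS and 63.3 CPM in MDA-MB231 cells with DMSO. Averaged over lines the SPRY2 change was 0.01 ± 0.58 (edgeR adjusted p = 0.994), a mean of opposite ratios whose sign changes with the setting: it was -1.64 without the U2OS doxorubicin library and 1.01 without the MDA-MB231 doxorubicin library (edgeR adjusted p = 0.0205), and -0.27 with total-count scaling.

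SPRY1 in MDA-MB231 cells was lower with all 3 DNA-damaging agents and not with paclitaxel. It had 271 reads (8.72 CPM) after etoposide against 548 reads (21.6 CPM) with DMSO replicate 1, and 73 reads (2.93 CPM) after MMS against 253 reads (15.8 CPM) with DMSO replicate 2. After paclitaxel it had 651 reads (22.9 CPM). The MMS library was the lowest of the 6 MDA-MB231 libraries, with a log2 ratio of -2.25, beyond the -0.44 between the 2 DMSO libraries. In U2OS cells SPRY1 had 12, 7 and 15 reads after etoposide, MMS and paclitaxel against 7 with DMSO, and the counting intervals of these 3 ratios include 0. The mean log2 change over lines was -2.14 ± 0.82 after MMS (edgeR adjusted p = 0.125) and -1.14 ± 0.74 after etoposide. SPRY1 was called after MMS when either doxorubicin library was left out (edgeR adjusted p = 0.0256 and 0.0257). SPRY2 had 8.97 CPM after MMS against 10.9 CPM in U2OS cells and 67.4 CPM against 98.7 CPM in MDA-MB231 cells, ratios of -0.26 and -0.55. SPRY4 ratios in MDA-MB231 cells were small under every drug, from -0.33 after doxorubicin to 0.21 after etoposide, within the 0.67 of the DMSO pair. In U2OS cells its reads numbered 108 after etoposide, 101 after MMS and 20 after paclitaxel, against 25 with DMSO, so the level was higher with each DNA-damaging agent but never above the 6.15 CPM reached with doxorubicin.

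**Figure D4:**
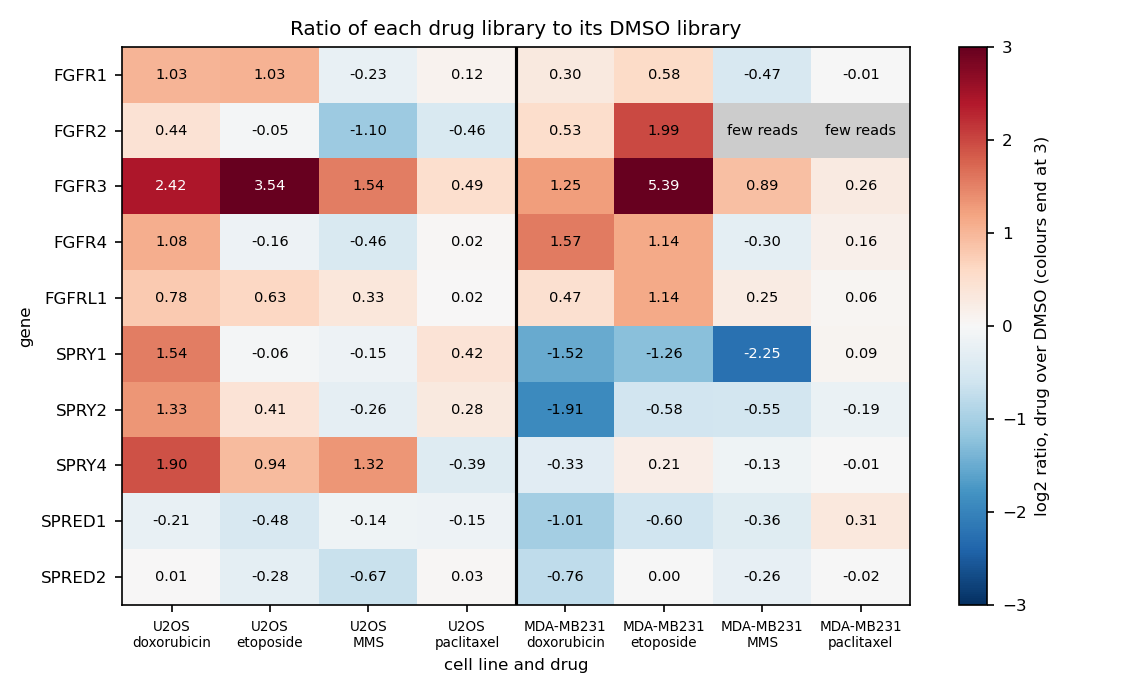
Log2 ratio of each drug library to the DMSO library of its line and title form (colour and number; red is higher with drug) for the 10 genes (y axis) in 4 U2OS and 4 MDA-MB231 pairs (x axis). Grey cells had at most 3 reads in either library. The pairs of a line share DMSO libraries, which also entered the choice of FGFR3, whose ratios lie between 0.26 and 5.39. SPRY1, SPRY2 and SPRY4 have opposite signs in the doxorubicin pairs of the 2 lines.

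The SPRED genes, by contrast, were expressed at similar levels in both lines. SPRED1, whose loss causes Legius syndrome, had 74.5, 61.7, 78.6 and 77.7 CPM after doxorubicin, etoposide, MMS and paclitaxel in U2OS cells, against 86.5 CPM with DMSO. In MDA-MB231 cells it had 56.7, 75.3 and 143 CPM after doxorubicin, etoposide and paclitaxel against 115 CPM with DMSO, and 93.6 CPM after MMS against 121 CPM. All 6 ratios for the DNA-damaging agents were below 0, and the doxorubicin library of MDA-MB231 cells was the lowest of its line. The mean log2 changes were -0.60 ± 0.25 after doxorubicin (edgeR adjusted p = 0.0813) and -0.57 ± 0.25 after etoposide. The doxorubicin value passed the threshold with total-count scaling (edgeR adjusted p = 0.0173) and when the U2OS doxorubicin library was left out (-1.03, edgeR adjusted p = 0.0137). SPRED2 had 93.8, 76.5, 58.5 and 95.2 CPM after doxorubicin, etoposide, MMS and paclitaxel in U2OS cells against 93.2 CPM with DMSO. In MDA-MB231 cells it had 42.9, 73.1 and 72.0 CPM after doxorubicin, etoposide and paclitaxel against 73.1 CPM with DMSO, and 70.0 CPM after MMS against 83.8 CPM. It was lowest after MMS in U2OS cells and lowest after doxorubicin in MDA-MB231 cells. After MMS its mean log2 change was -0.52 ± 0.24 (edgeR adjusted p = 0.188). Of the 5 Sprouty and SPRED genes edgeR called 0 after each of doxorubicin, MMS and paclitaxel, with 1, 1 and 0 at an unadjusted p under 0.05 and 0 by DESeq2 each time. Of all genes tested, 42.5%, 10.4% and 0% were called after these drugs. The 5 Sprouty and SPRED genes had a median log2 change of 0.01 after doxorubicin, -0.52 after MMS and 0.07 after paclitaxel, against medians over all genes tested of 0.07, -0.04 and 0.01. The SE of the 3 Sprouty genes was 0.55 to 0.82 in these contrasts, so a 2-fold change in them would not have passed the threshold.

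Counted within a line at 2-fold or more with at least 5 CPM in the larger library, and with no test, the members split by line. In U2OS cells 5 of the 9 measurable members were higher after doxorubicin (FGFR1, FGFR3, FGFR4, SPRY2 and SPRY4) and 0 lower, where 14.3% of all such genes were higher and 18.3% lower. With total-count scaling that count was 3, since FGFR1 and FGFR4 came to log2 ratios of 0.73 and 0.78. In MDA-MB231 cells 0 of 7 were higher and 3 lower after doxorubicin (SPRY1, SPRY2 and SPRED1), where 8.19% of genes were higher and 18.8% lower. After MMS FGFR3 was higher and FGFR2 lower in U2OS cells (7.32% and 11.2% of genes), and SPRY1 lower in MDA-MB231 cells (2.71% of genes higher and 3.4% lower). After paclitaxel no member reached 2-fold in either line, where 0.0888% of genes did in U2OS cells and 0.471% in MDA-MB231 cells. After etoposide FGFR1 and FGFR3 were higher in U2OS cells, and FGFR3 and FGFRL1 higher and SPRY1 lower in MDA-MB231 cells, where 6.1% of genes were higher and 7.5% lower in U2OS cells and 8.62% higher and 11.2% lower in MDA-MB231 cells. A term for a different mean drug response in the lines was called for 0 of the 10 genes, with 0 at an unadjusted p under 0.05 and 0 by DESeq2, and for 0 of 16530 genes in all (0%), with 210 at an unadjusted p under 0.05. That term averages over the 4 drugs.

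Across the 8 drug-to-DMSO ratios, FGFRL1 was the member whose pattern came closest to that of FGFR3 (Pearson r = 0.936, and 0.952 over the 6 ratios without etoposide). FGFR1 had 0.636 (0.646 without etoposide), SPRY4 0.334 (0.846) and FGFR2 0.703 (0.210, on few reads in MDA-MB231 cells), so the order below FGFRL1 rests on the etoposide ratios. SPRED1 had the most negative value in each case, at -0.43 and -0.31. Among 3628 candidate genes that reached 5 CPM and a 2-fold rise somewhere, the 5 with the highest r with FGFR3 were CRIPT (0.984), TROVE2 (0.982), POU3F2 (0.981), FAM134C (0.979) and UNC5B (0.976). Without the etoposide ratios their r was 0.896, 0.928, 0.878, 0.939 and 0.849. CRIPT binds the synaptic scaffold PSD-95, TROVE2 encodes the Ro60 RNA-binding protein, POU3F2 is a neural POU transcription factor, FAM134C is a relative of an ER-phagy receptor, and UNC5B is a netrin receptor. UNC5B came nearest in size as well, with log2 ratios of 2.64 and 4.84 after etoposide in U2OS and MDA-MB231 cells beside 3.54 and 5.39 for FGFR3, whereas CRIPT and TROVE2 stayed between 0.86 and 1.60 there. The ratios of a line share a DMSO library, and r is a description of these 8 points. The 5 genes were picked on ratios that include the etoposide ones, so their high etoposide ratios follow from that choice.

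**Figure D5:**
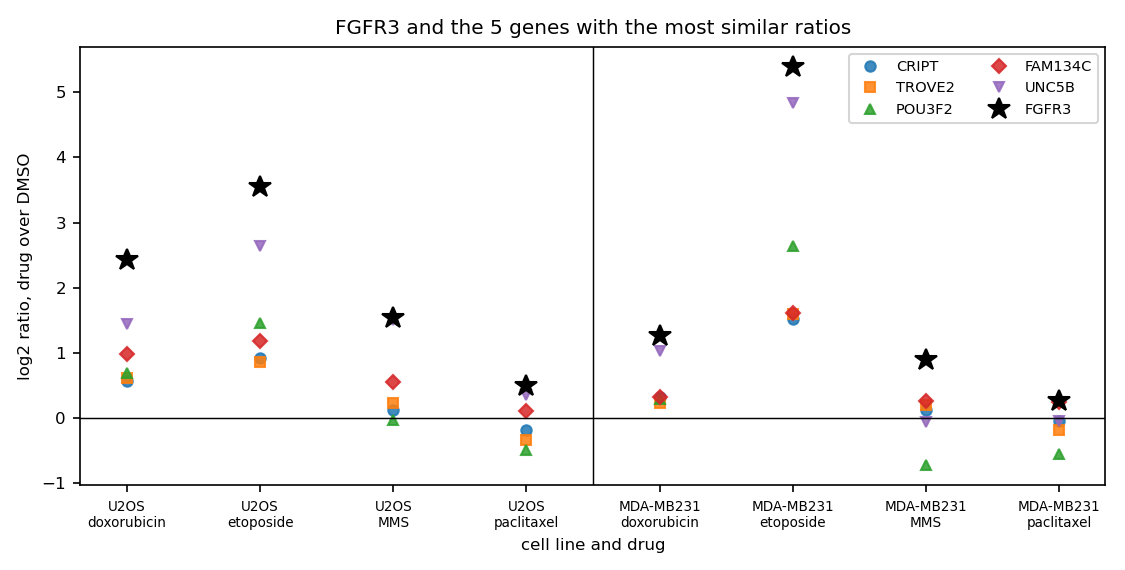
Log2 ratio of drug over DMSO (y axis) in the 8 line and drug pairs (x axis) for FGFR3 (stars) and the 5 genes whose ratios correlate best with it, 1 point per pair. The 5 genes were picked for following FGFR3, so their shared peak in the MDA-MB231 etoposide pair follows from that choice. In that pair FGFR3 reaches 5.39 and UNC5B 4.84.

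Genes near FGFR3 on chromosome 4 were called in both directions after doxorubicin. Of 6 such neighbours, 1 rose and 3 fell after doxorubicin, beside 21.9% and 20.6% of all genes. After etoposide 0 were called higher and 2 lower, beside 7.97% and 9.23%, and edgeR called 0 after MMS, with 3 at an unadjusted p under 0.05 and 1 by DESeq2. TACC3, the mitotic spindle gene next to FGFR3, fell after doxorubicin (-0.73 ± 0.17, edgeR adjusted p = 0.00889), was lower after etoposide (-0.64 ± 0.17), and had 109 CPM after MMS against 159 CPM with DMSO in U2OS cells. SLBP, the histone mRNA-binding protein gene, fell after doxorubicin (-1.93 ± 0.20), and TMEM129, an ER ubiquitin ligase gene, rose (0.82 ± 0.16). WHSC1, a histone methyltransferase gene, fell after doxorubicin (-0.50 ± 0.17) and was lower after etoposide (-1.31 ± 0.18). The 3 members with the shortest gene spans, SPRY2 (4.98 kb), SPRY1 (6.97 kb) and FGFR4 (11.3 kb), and the 3 longest, SPRED1 (105 kb), FGFR2 (120 kb) and SPRED2 (122 kb), are set beside doxorubicin ratios in U2OS cells of 1.33, 1.54 and 1.08 for the short genes and -0.21, 0.44 and 0.01 for the long ones. In MDA-MB231 cells the doxorubicin ratios of the same genes were -1.91, -1.52 and 1.57 for the short genes and -1.01, 0.53 and -0.76 for the long ones, of which FGFR2 had 6 reads against 1. A part of gene length in these ratios was not tested.

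Few FGF ligand genes were measurable. Of 18 secreted FGF genes 5 had enough reads to be tested (FGF1, FGF2, FGF5, FGF9 and FGF18). FGF5, a hair-cycle regulator in the mouse, fell after doxorubicin by a log2 value of -1.79 ± 0.56 (edgeR adjusted p = 0.0303), with 13.2 CPM against 40.4 CPM in U2OS cells and 14.2 CPM against 91.4 CPM in MDA-MB231 cells. FGF1, which binds all 4 receptors, had 3.54 CPM after etoposide against 27.7 CPM with DMSO in U2OS cells and 0.579 CPM against 3.97 CPM in MDA-MB231 cells, and its log2 change was -2.68 ± 0.44. FGF2, the basic fibroblast growth factor, had 21.0 to 161 CPM in U2OS cells and at most 0.740 CPM in MDA-MB231 cells. These calls, 1 lower after doxorubicin and 1 lower after etoposide, were the only ones among the 5 ligands for a drug against DMSO. Over all genes 20.6% were called lower after doxorubicin and 9.23% after etoposide. After MMS edgeR called 0 of 5, with 1 at an unadjusted p under 0.05 and 1 by DESeq2, beside 10.4% of all genes called.

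Among 14 tested co-receptors and binding partners of 17 listed, 4 rose and 1 fell after doxorubicin, 1 was called higher and 3 lower after etoposide, and 0 rose and 1 fell after MMS. Over all genes 21.9% rose and 20.6% fell after doxorubicin, 7.97% were called higher and 9.23% lower after etoposide, and 5.23% rose and 5.16% fell after MMS. The list's median log2 change was 0.45 after doxorubicin and -0.29 after MMS, against 0.07 and -0.04 over all genes. The heparan sulphate proteoglycan genes SDC4 (1.37 ± 0.29, edgeR adjusted p = 0.00551), GPC1 (1.36 ± 0.16, edgeR adjusted p = 0.000445) and SDC2 (1.22 ± 0.28, edgeR adjusted p = 0.00857) rose after doxorubicin. SDC4 had 1379.9 CPM against 472 CPM in U2OS cells and 1073 CPM against 436 CPM in MDA-MB231 cells. FLRT3, a membrane partner of FGF receptors, fell, with 0.0488 CPM against 3.69 CPM in U2OS cells. SDC1, another such proteoglycan, fell after MMS (-1.26 ± 0.28, edgeR adjusted p = 0.0274), and after etoposide SDC1, CDH2 (N-cadherin) and GPC6 were lower and SDC2 higher.

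The 25 adaptor and RAS-ERK cascade genes changed in both directions after doxorubicin, with 4 higher and 5 lower beside 21.9% and 20.6% of all genes, and 2 were called higher and 0 lower after etoposide, beside 7.97% and 9.23%. After MMS edgeR called 0 of them, with 5 at an unadjusted p under 0.05 and 1 by DESeq2. GRB2 (0.64 ± 0.15), MAP2K1 (0.66 ± 0.15) and MAPK3, encoding ERK1 (0.55 ± 0.18), rose after doxorubicin, while CRKL (-0.95 ± 0.21) and ARAF (-0.75 ± 0.17) fell. After etoposide the docking protein gene GAB1 was higher by 1.03 ± 0.29 and the adaptor gene CRK by 0.53 ± 0.15. Of 16 transcripts that ERK activity is known to raise, 3 rose and 4 fell after doxorubicin, 2 were called higher and 3 lower after etoposide, and 2 rose and 3 fell after MMS, with median log2 changes of -0.06, 0.25 and -0.08 against 0.07, 0.02 and -0.04 over all genes. The 7 calls after doxorubicin stand beside 42.5% of all genes, the 5 after etoposide beside 17.2% and the 5 after MMS beside 10.4%. EGR1, an immediate early transcription factor gene, rose after doxorubicin (3.10 ± 0.75, edgeR adjusted p = 0.0106) and MMS (3.53 ± 0.67, edgeR adjusted p = 0.0185), whereas FOSL1, the FRA-1 gene (-2.85 ± 0.27, edgeR adjusted p = 0.000233), fell after doxorubicin and CCND1, encoding cyclin D1 (-1.63 ± 0.31, edgeR adjusted p = 0.0181), after MMS. SPHK1, a sphingosine kinase gene, was the other of the 2 that rose after MMS (0.79 ± 0.21). EPHA4, itself a receptor tyrosine kinase, rose after doxorubicin by 3.33 ± 0.40, with 55.9 CPM against 3.48 CPM in U2OS cells and 72.1 CPM against 10.5 CPM in MDA-MB231 cells.

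Of 14 tested genes for other inhibitors of the cascade, 1 rose and 5 fell after doxorubicin (median -0.45 against 0.07 over all genes), beside 42.5% of all genes called, and 0 rose and 1 fell after MMS, beside 10.4%. After etoposide edgeR called 0, with 3 at an unadjusted p under 0.05 and 3 by DESeq2. ERRFI1, an EGFR inhibitor (-1.63 ± 0.40), DUSP7, an ERK phosphatase (-1.35 ± 0.17), and RASA3, a RAS GTPase-activating protein (-1.29 ± 0.31), fell after doxorubicin, and PEBP1, the RAF kinase inhibitor protein, rose (0.98 ± 0.13). DUSP7 also fell after MMS (-0.67 ± 0.16, edgeR adjusted p = 0.0361). Among 46 tested genes of other receptor tyrosine kinases out of 52, 8 rose and 3 fell after doxorubicin, 3 were called higher and 8 lower after etoposide, and 2 rose and 10 fell after MMS, with medians of 0.15, 0.11 and -0.81. The shares of all genes called were 42.5%, 17.2% and 10.4%, and the medians over all genes 0.07, 0.02 and -0.04. RET, the GDNF receptor gene (6.19 ± 1.43, on at most 2.01 CPM), EPHA4 and FLT1, a VEGF receptor gene (1.84 ± 0.52), rose after doxorubicin, and EGFR (-1.17 ± 0.23), MET (-0.87 ± 0.19) and EPHB4 (-1.75 ± 0.27) fell. EPHB3, an ephrin receptor gene, was higher after etoposide by 3.17 ± 0.70, and AXL, a receptor for GAS6, lower by -1.75 ± 0.27. ROR1 (-2.89 ± 0.54) fell and LMTK2 (0.63 ± 0.16) rose after MMS.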

How the data were processed

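RNA-seq was run on 11 libraries of U2OS and MDA-MB231 cells. The authors deposited whole-number read counts per gene for each library, with 5 summary rows (reads mapped to several places, outside genes or ambiguous) that stayed out of library sizes and tests and held 28.4% to 37.5%, 7.16% to 9.70% and 1.03% to 1.19% of the reads tabulated. Base calls came from CASAVA 1.8.2, alignment from TopHat2 2.0.8b and counting from HTSeq (version not given in the sources used here), per the submitters' processing notes, which name the builds hg19 and mm9. No source used here states the strand setting, so it is not known whether reads from a gene and its antisense partner were counted apart.

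The deposited counts entered edgeR 4.0.16's quasi-likelihood test (R 4.3.3) with robust fitting, TMM factors and filterByExpr, which kept 15888 genes and all 10 members. Each drug had its own term, and the block had 3 levels, made of U2OS libraries and of the MDA-MB231 libraries by whether the title ends in 8hr. The pairing comes from the cell line, since the labels carry no shared replicate numbers. The fit left 4 residual degrees of freedom, 3 with a term for treated U2OS cells, over all drugs or, added after seeing the data, within doxorubicin, MMS or paclitaxel alone. The 2 lines serve as the replicates of a drug, so p-values rest on how far their responses differ and hold no replication within a line. For the contrast between lines, the differently treated libraries of each line take the place of replicates. Each SE was obtained as the size of the log2 change over the square root of its F statistic. Calls are at a Benjamini-Hochberg adjusted p under 0.05 over all genes tested. Per-kilobase levels divide TMM-scaled CPM by the union of exons in GENCODE release 29. Counting intervals are exact binomial 95% intervals and cover counting error only. No pair of libraries compared agreed within sampling noise.

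The members, gene lists and tests were chosen with earlier results of these data known. Named genes are the 10 members, up to 3 called genes per direction, drug and list, and the 5 genes most like FGFR3. A result that this rule would name is not reported here. Alternatives were DESeq2 1.42.0, other scalings, filters, blocks and library sets, each library left out, and for single-line ratios total counts, other added CPM and the other MDA-MB231 DMSO library. Promoters were available here for 9 of the 10 genes, as 18 RefSeq windows. A transcript overlapping SPRY4 was not analysed here.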

Additional observations from a re-analysis of the deposited data

Results flagged for a closer look

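Log2 ratios of drug over DMSO had opposite signs in the 2 lines for 3 genes. SPRY2 stood at 1.33 in U2OS and -1.91 in MDA-MB231 cells after doxorubicin, at 0.41 in U2OS and -0.58 in MDA-MB231 cells after etoposide, and at 0.28 in U2OS and -0.19 in MDA-MB231 cells after paclitaxel. SPRY4 stood at 1.90 in U2OS and -0.33 in MDA-MB231 cells after doxorubicin. SPRED1 stood at -0.15 in U2OS and 0.31 in MDA-MB231 cells after paclitaxel. Each value compares 1 library with 1 library. The difference between lines was tested in edgeR within doxorubicin, where that of SPRY2 was 2.79 ± 0.38 (edgeR adjusted p = 0.0975) and that of SPRY4 2.07 ± 0.70 (edgeR adjusted p = 0.253), and within paclitaxel, where SPRY2 and SPRED1 were not called; within etoposide it was not tested. What singled them out is that the counting interval excludes 0 on opposite sides in the lines. Of these 10 values 3 exceed 0.67, the 95th percentile of the absolute log2 ratio between the 2 MDA-MB231 DMSO libraries: SPRY2 after doxorubicin in both lines and SPRY4 after doxorubicin in U2OS cells. SPRY1 after doxorubicin (1.54 in U2OS and -1.52 in MDA-MB231 cells) is left out here because its U2OS level stayed under 5 CPM.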

How the results depend on the processing

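Without the replicate block, which here is the cell line and title form and not a numbered replicate, the member counts were 0 after doxorubicin, 0 after etoposide, 0 for MMS against doxorubicin and 0 for paclitaxel against doxorubicin, with 1900 genes called in all after doxorubicin, 0 after etoposide and 0 after MMS, and 2 members were called for the line term. With only a drug's own libraries and their DMSO libraries, 2 members were called after doxorubicin, and in all 641 genes after MMS and 30 after paclitaxel; DESeq2 called 2903 genes after MMS. Leaving out 1 library at a time, the members called ranged from 1 to 6 after doxorubicin, 0 to 4 after etoposide, 0 to 1 after MMS, 0 to 4 for MMS against doxorubicin, 0 to 5 for paclitaxel against doxorubicin and 0 to 1 for MMS against paclitaxel. All genes called then ranged from 4058 to 7057 after doxorubicin, 49 to 3709 after etoposide and 0 to 2537 after MMS. With total counts 3 members passed 2-fold after doxorubicin in U2OS cells, and with 2 CPM added 1 did after MMS. The SPRY2 change after doxorubicin turned negative at -0.27 with total counts, -0.077 with no filter, -0.070 with the line alone as block, -1.36 without the replicate block and -0.31 with only the doxorubicin libraries, and ranged from -1.64 to 1.01 when 1 library was left out. Of 578 comparisons of fitted values with an alternative, 484 kept direction and side of the threshold, 62 lost the call, 18 gained it and 14 changed sign, all 14 of them SPRY2 after doxorubicin; of 212 single-line comparisons 41 moved beyond their counting interval. The cause was not tested. Low reads limit SPRY1 in U2OS cells and FGFR2, FGFR3 and FGFR4 in MDA-MB231 cells.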
